A study of Daphnia magna with 335 samples.

Results

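The 9 libraries described here come from whole Daphnia magna exposed for 24 h to 4-chlorophenyl methyl sulfoxide at the 3 highest concentrations of its dilution series. They were chosen by treatment label and level code, with earlier results of these data known, and they are 9 of the 335 libraries of a study of 12 chemicals. Level D1 was 66.67 µM, D2 was 21.1 µM and D3 was 6.677 µM, with 3 libraries at each level. They were set against the 6 DMSO libraries of the same exposure, 3 with the label prefix CON and 3 with the prefix XtraC. Replicate letters A, B and C run through all of these groups. Each library is a pool of 5 whole animals from 1 of 3 plates, with dead animals left out of the pool, so every value is an average over animals and tissues. All groups received the same solvent, and DMSO did not exceed 0.34% in any well. The same exposure also held hydrochlorothiazide, with its own dilution series. The sample labels name the sulfoxide, whereas the study's design text lists the corresponding sulfone, and the labels are followed here.

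Daphnia magna is a freshwater crustacean, the water flea, that filters algae from the water and is a standard animal of aquatic toxicity testing. In a sulfoxide a sulfur atom carries 1 oxygen and carbon groups on either side, here a methyl group and a chlorinated benzene ring; in the sulfone the same sulfur carries a further oxygen. The solvent DMSO is itself a sulfoxide, with methyl groups on both sides. TempO-Seq detects a transcript by a pair of short oligos that are ligated when they bind next to each other on the RNA, and each probe is then counted by sequencing. The probes carry gene identifiers of the Dapma7bEVm gene set, which the files do not pair with gene names or functions, so the results are given by probe identifier.

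The 9 sulfoxide libraries held 306511 to 862414 counts, with a median of 683909, and the DMSO libraries held 421891 to 791131. The lowest total, 306511 counts in pool A at 21.1 µM, was the only one of the 15 under 50% of their median. The table held 2378 probes for 1988 identifiers, and 1380 probes had enough counts to be tested. Levels are given as counts per 1000000 counts (CPM) after scaling over the 54 libraries of the exposure. A probe is called where edgeR's quasi-likelihood test, with the replicate letter as a block, gave a Benjamini-Hochberg adjusted p under 0.05 over all 1380 probes. The pools come from 3 plates of 1 exposure, so these p-values measure the spread between such pools.

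With the 3 concentrations pooled, a small set of transcripts differed from the solvent pools. 13 probes fell, by 1.28-fold to 3.18-fold, and 10 probes rose, by no more than 1.37-fold. The transcripts that fell were of moderate abundance, with a median of 164 CPM, and those that rose were abundant, with a median of 2810 CPM. In all, 23 of 1380 probes (1.67%) were called, 10 higher (0.725%) and 13 lower (0.942%). The split between directions differed between analyses. Limma on the deposited log2 values, which are not scaled for library totals, called 5 of the 23, all of them lower. DESeq2 called 38 probes, 23 higher and 15 lower. It gave no adjusted p for many of the 13 lower probes, so these could not be among its calls. They were Dapma7bEVm010330_97413, Dapma7bEVm005544_96655, Dapma7bEVm015061_96772, Dapma7bEVm009557_97217, Dapma7bEVm009911_96464, Dapma7bEVm002808_97577 and Dapma7bEVm000145_97093. All 10 higher probes had an adjusted p there. Across all 1380 probes the median log2 fold change was -0.015. In whole-animal RNA, fewer cells of a type and less RNA per cell cannot be told apart.

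**Figure D1:**
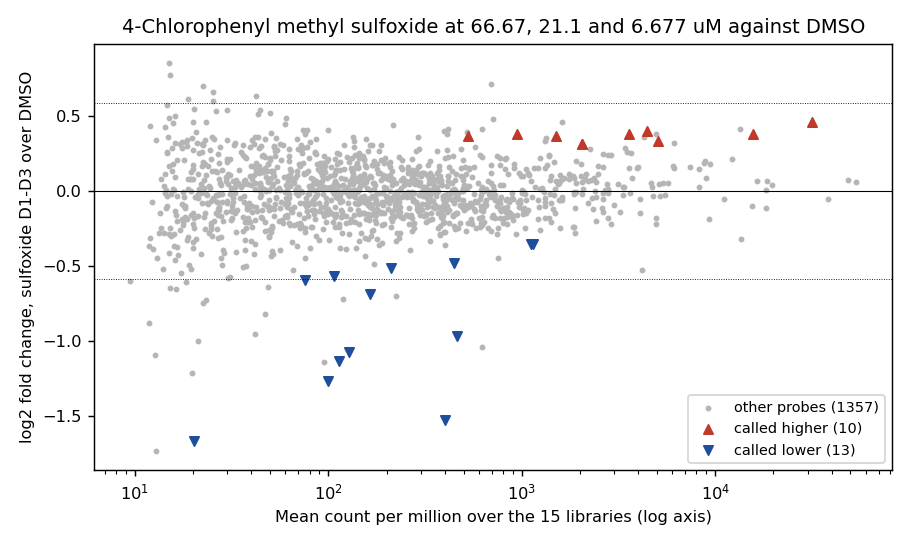
Each point is 1 of the 1380 probes tested, with its mean abundance (CPM, log x axis) and its log2 fold change, sulfoxide at 66.67, 21.1 and 6.677 µM together over DMSO (y axis). The 10 probes called higher lie at the abundant end and all below 1.5-fold, and the 13 called lower reach 3.18-fold at lower abundance.

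The abundance of the called probes is seen by cutting the 1380 probes into 4 groups of equal size by mean level. All 10 probes called higher lay in the most abundant group, whose median was 1010 CPM. Of the 13 called lower, 1 lay in the least abundant group (median 27.1 CPM), 5 in the next (90.3 CPM), 3 in the third (241 CPM) and 4 in the most abundant. The median width of the 95% interval to either side of the log2 fold change fell along the same groups, 0.492 in the least abundant, then 0.269, 0.192 and 0.166 in the most abundant.

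The probe with the smallest p was Dapma7bEVm028330_96094. At 66.67 µM its pools A, B and C had 290.7, 309.2 and 170.3 CPM, at 21.1 µM they had 338, 176.6 and 128.9 CPM, and at 6.677 µM they had 321.4, 231.3 and 113 CPM. The CON pools A, B and C had 820.6, 681 and 365.4 CPM, and the XtraC pools A, B and C had 1168, 576.4 and 376.4 CPM. Every sulfoxide pool was below every DMSO pool, and within both treatments letter A was the highest and letter C the lowest on average. The pooled log2 fold change was -1.52 ± 0.11 (SE; adjusted p = 2.08e-06, edgeR), which is 2.87-fold lower, with a 95% interval of -1.76 to -1.28. The difference was close to even over the concentrations, at -1.31, -1.65 and -1.60 for D1, D2 and D3, and within letters A, B and C it was -1.62, -1.42 and -1.43.

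Dapma7bEVm005544_96655 was also lower in all 9 sulfoxide pools than in any DMSO pool. Its sulfoxide pools had 133.3, 83.64 and 53.86 CPM at 66.67 µM, 104.8, 109.4 and 52.99 CPM at 21.1 µM and 129.9, 77.95 and 62.27 CPM at 6.677 µM. Its DMSO pools had 270.5, 135.9 and 139.6 CPM in CON and 268.9, 175.4 and 136.6 CPM in XtraC. The highest sulfoxide pool, 133.3 CPM, and the lowest DMSO pool, 135.9 CPM, were nearly equal, but came from different letters. Within a letter the groups were farther apart, with log2 differences of -1.12, -0.77 and -1.25 for A, B and C. The pooled log2 fold change was -1.07 ± 0.11 (SE; adjusted p = 5.01e-05, edgeR), with -1.10, -1.03 and -1.08 for D1, D2 and D3. With all 8 levels of the sulfoxide in 1 fit its call was lost (adjusted p = 0.0978, edgeR).

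Dapma7bEVm015061_96772 was the third probe called at each of the 3 concentrations by itself. It had 90.73, 110.5 and 72.79 CPM at 66.67 µM, 47.32, 89.1 and 55.86 CPM at 21.1 µM and 80.78, 74.18 and 51.89 CPM at 6.677 µM. The DMSO pools had 188.7, 187.2 and 95.06 CPM in CON and 234.4, 177 and 120.6 CPM in XtraC. Pool B at 66.67 µM lay above the lowest DMSO pool, CON pool C, and the other 8 sulfoxide pools lay below all DMSO pools. The pooled log2 fold change was -1.14 ± 0.13 (SE; adjusted p = 9.49e-05, edgeR). With all 8 levels in 1 fit its call was lost too (adjusted p = 0.0645, edgeR).

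Dapma7bEVm010330_97413 fell at 66.67 and 6.677 µM, with less of a difference at 21.1 µM. Its sulfoxide pools A, B and C had 81.47, 37.34 and 32.03 CPM at 66.67 µM, 158.9, 73.47 and 61.59 CPM at 21.1 µM and 100.1, 50.29 and 19.6 CPM at 6.677 µM. The DMSO pools had 277.3, 109 and 90.6 CPM in CON and 206.9, 131.6 and 98.82 CPM in XtraC. Here 7 of 9 sulfoxide pools lay below all DMSO pools, and both others were letter A. The log2 fold changes were -1.63 at D1, -0.65 at D2 and -1.51 at D3, and edgeR's adjusted p of the D2 value was 0.106. The pooled value was -1.27 ± 0.12 (SE; adjusted p = 3.83e-05, edgeR). Its call was lost with all 8 levels in 1 fit (adjusted p = 0.118, edgeR) and without the letter block (adjusted p = 0.122, edgeR).

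Dapma7bEVm000194_95723 and Dapma7bEVm009911_96464 were the other probes whose 9 sulfoxide pools were all below the 6 DMSO pools. For Dapma7bEVm000194_95723 the sulfoxide pools lay between 149.9 and 209.6 CPM and the DMSO pools between 216.5 and 327.3 CPM. Its means were 179 ± 16 CPM in 9 sulfoxide pools and 256 ± 43 CPM in 6 DMSO pools (SD), and its log2 fold change was -0.51 ± 0.08 (SE; adjusted p = 0.00326, edgeR). For Dapma7bEVm009911_96464 the sulfoxide pools lay between 67.89 and 105.4 CPM and the DMSO pools between 107.5 and 160.9 CPM. This second probe had a pooled log2 fold change fitted at -0.57 ± 0.12 (SE; adjusted p = 0.0237, edgeR) and was called at no single concentration.

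Dapma7bEVm011091_96085 fell by 0.96 ± 0.17 on the log2 scale (SE; adjusted p = 0.00604, edgeR). Its sulfoxide pools ranged from 218.5 to 464.2 CPM with a mean of 335 ± 75 CPM (SD, n = 9), and its DMSO pools from 431.6 to 1009 CPM with a mean of 664 ± 215 CPM (SD, n = 6). Only pool B at 21.1 µM lay inside the DMSO range. The difference was not even over the letters, at -1.48 in A, -0.85 in B and -0.53 in C.

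The remaining 6 probes called lower had smaller differences or few counts. Dapma7bEVm009557_97217 had a log2 fold change fitted at -0.68 (adjusted p = 0.00917), Dapma7bEVm015137_96144 of -0.36 (0.0146) and Dapma7bEVm030474_96870 of -0.48 (0.0157), all by edgeR. Dapma7bEVm002808_97577 had -0.59 (adjusted p = 0.0239, edgeR), most of it at 6.677 µM, where it was -0.98. Dapma7bEVm000145_97093 and Dapma7bEVm009657_97116 fall outside the rule for named probes and are named because they complete the 13. Dapma7bEVm000145_97093 had the largest fitted difference, -1.67 ± 0.36 (SE; adjusted p = 0.0259, edgeR), but on only 53 counts in the 9 sulfoxide pools and 104 counts in the 6 DMSO pools. Dapma7bEVm009657_97116 had -0.35 (adjusted p = 0.0378, edgeR), and its call was lost in 22 of 28 alternative settings.

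Among the probes that rose, Dapma7bEVm010425_96130 had the smallest p and the highest level. Its sulfoxide pools A, B and C had 36750, 34780 and 44380 CPM at 66.67 µM, 40760, 37810 and 40270 CPM at 21.1 µM and 30200, 28020 and 31120 CPM at 6.677 µM. The CON pools had 27260, 26120 and 23670 CPM and the XtraC pools 24710, 24920 and 27310 CPM. All 9 sulfoxide pools were above all 6 DMSO pools, and it was the only one of the 10 for which this held. The pools at 6.677 µM were nearest to the DMSO pools, with log2 fold changes of 0.56 at D1, 0.61 at D2 and 0.20 at D3, although the test of a difference among the 3 levels did not call it (edgeR adjusted p = 0.18). The pooled log2 fold change was 0.46 ± 0.07 (SE; adjusted p = 0.00326, edgeR), or 1.37-fold.

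Dapma7bEVm001511_96121 and Dapma7bEVm001511_97089 are separate probes of 1 gene identifier, and both were called. Dapma7bEVm001511_96121 had 19780, 17300 and 21830 CPM at 66.67 µM, 20940, 17060 and 17160 CPM at 21.1 µM and 14430, 13260 and 15160 CPM at 6.677 µM. Its DMSO pools had 11820, 12350 and 12350 CPM in CON and 14150, 13180 and 14860 CPM in XtraC. The 6 pools at the 2 higher concentrations were above every DMSO pool, and 2 of the 3 at 6.677 µM lay inside the DMSO range. The log2 fold changes at D1, D2 and D3 were 0.56, 0.47 and 0.10 for this probe and 0.49, 0.37 and 0.08 for Dapma7bEVm001511_97089. Pooled, they were 0.38 ± 0.08 (adjusted p = 0.0165) and 0.31 ± 0.07 (adjusted p = 0.0213), with SE and by edgeR.

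Dapma7bEVm001645_96689 was spread more evenly over the concentrations. It had 4833, 4564 and 5159 CPM at 66.67 µM, 3988, 5074 and 5490 CPM at 21.1 µM and 4654, 5074 and 5931 CPM at 6.677 µM. The DMSO pools had 3637, 3731 and 4472 CPM in CON and 2813, 3557 and 4252 CPM in XtraC. Pool A at 21.1 µM, the library with the lowest total, lay inside the DMSO range and the other 8 sulfoxide pools above it. The pooled log2 fold change was 0.40 ± 0.07 (SE; adjusted p = 0.00604, edgeR).

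The other 6 probes called higher had pooled log2 fold changes of 0.31 to 0.38. Dapma7bEVm010001_97227 averaged 5567 ± 557 CPM in the sulfoxide pools and 4404 ± 649 CPM in the DMSO pools (SD, n = 9 and 6), with a log2 fold change fitted at 0.33 ± 0.06 (SE; adjusted p = 0.00604, edgeR) and nearly equal values of 0.35, 0.32 and 0.31 at D1, D2 and D3. Dapma7bEVm000066_96912 had 0.37 (adjusted p = 0.00917, edgeR), Dapma7bEVm015082_97414 had 0.36 (adjusted p = 0.0165, edgeR) and Dapma7bEVm004430_96597 had 0.36 (adjusted p = 0.0259, edgeR). Dapma7bEVm015369_96857, with 0.38, and Dapma7bEVm004925_95830, with 0.31, both had an adjusted p of 0.0266 by edgeR. Between 6 and 8 of the 9 sulfoxide pools of these 6 probes lay above all DMSO pools.

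**Figure D2:**
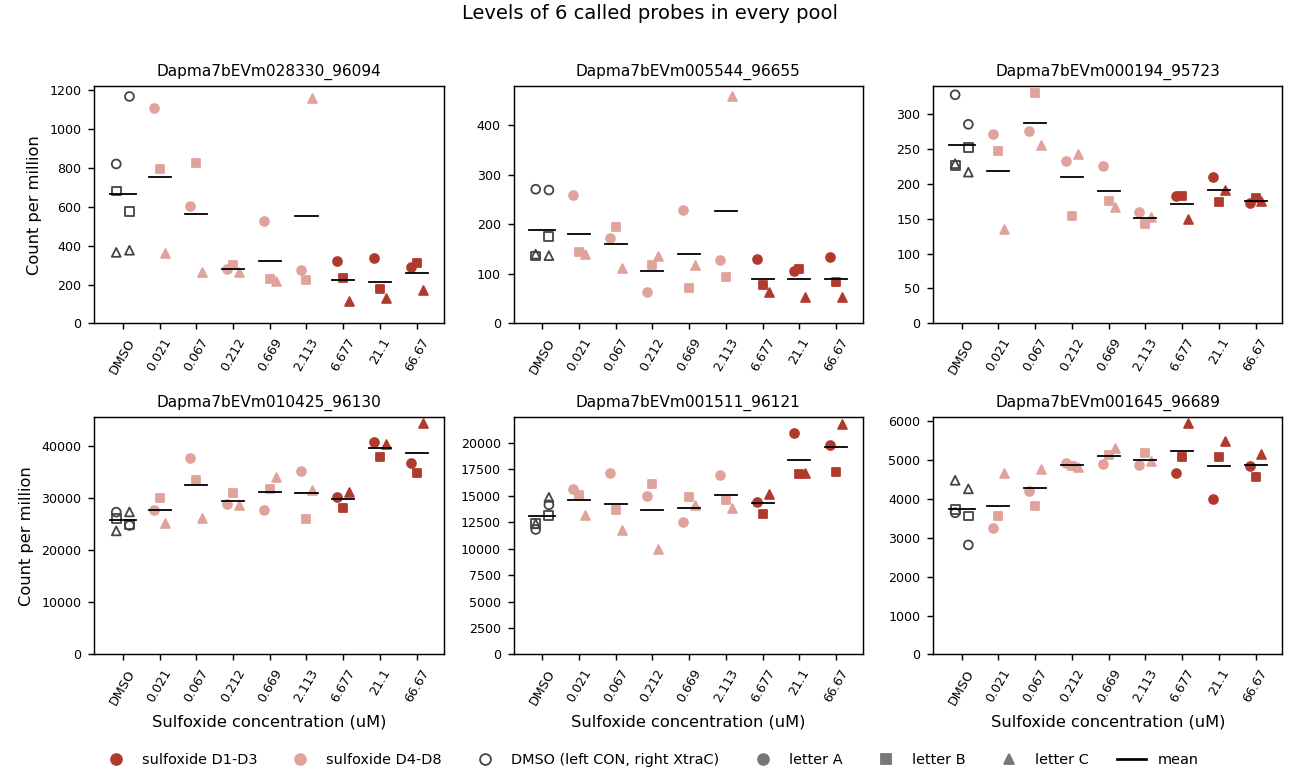
CPM (y axis, from 0) of 3 probes called lower and 3 called higher, in each pool, by sulfoxide concentration in µM (x axis, DMSO at the left); shapes mark the replicate letter and black lines the mean. Filled dark points, at 6.677 to 66.67 µM, lie below the open DMSO points in the upper panels, while pool C at 2.113 µM had 1159 CPM of Dapma7bEVm028330_96094.

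All 23 called probes had the same direction in each of the 3 letters when the mean log2 CPM of the 3 sulfoxide pools was set against that of the DMSO pools of that letter. Because the probes were called in a fit with the letter as a block, this is a description of the calls and no separate evidence for them. For Dapma7bEVm009557_97217 the differences were uneven, -1.02 in A, -0.24 in B and -0.70 in C. For Dapma7bEVm010001_97227 they were 0.44, 0.32 and 0.28.

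**Figure D3:**
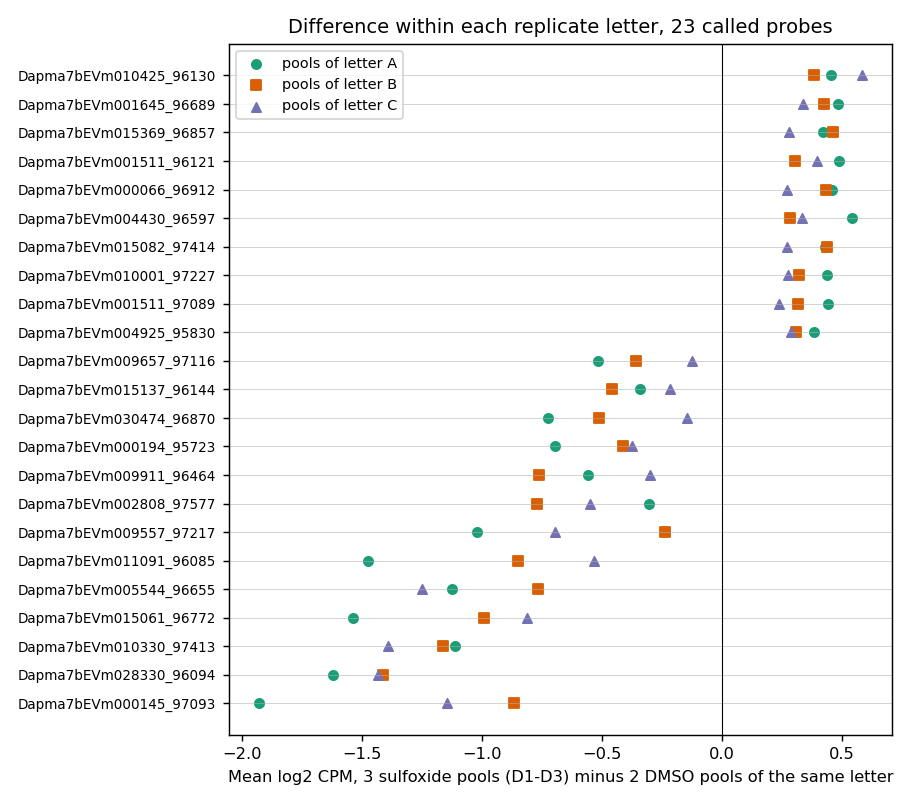
Difference in mean log2 CPM, sulfoxide pools at the 3 concentrations minus DMSO pools, within letters A, B and C (points) for each of the 23 called probes (y axis), on a log2 scale (x axis). The 10 probes called higher lie to the right of 0 and the 13 called lower to the left in every letter.

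The block matters to the count. Without it, 11 of the 23 probes were called, 3 higher and 8 lower, and no others. Leaving out pool C at 66.67 µM raised the count to 52, and leaving out a whole letter lowered it to 7 without A, 5 without B and 14 without C. That pool C had the lowest TMM scaling factor of the 54 libraries, 0.8314. Its top 10 probes held 32.9% of its counts, the highest such share. Whether this bears on the count was not tested. Of the 23 probes, Dapma7bEVm028330_96094 alone kept its call in all 28 alternative settings.

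Each concentration was also tested by itself against the same DMSO pools. With all 6 of these pools and the letter block, edgeR called 18 probes at 66.67 µM (1.3%), 6 higher and 12 lower. It called 10 at 21.1 µM (0.725%), 2 higher and 8 lower, and 11 at 6.677 µM (0.797%), 3 higher and 8 lower. These contrasts share the DMSO pools and 1 fit with the pooled contrast, so 15 of 18, 6 of 10 and 9 of 11 of the called probes being among the 23 is a description. Without the block the 3 counts were 4, 1 and 0. With single libraries left out they ranged from 4 to 34, from 2 to 12 and from 4 to 25. At 21.1 µM the count was 2 without the library of lowest total, pool A of that level. Whether a single level gave more or fewer calls than the 9 pools depended on the setting. DESeq2 called 43 at 66.67 µM and 38 in the pooled contrast. Limma, on values not scaled for library totals, called 16 at 21.1 µM and 5 pooled. Against the XtraC pools alone, edgeR called 23 at 21.1 µM and 15 pooled.

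Of the 23 probes, 3 were called at all 3 concentrations, 5 at 2 of them, 11 at 1 and 4 at none. The 4 that only the pool of 9 called were Dapma7bEVm004925_95830 and Dapma7bEVm015369_96857 among those that rose, and Dapma7bEVm009911_96464 and Dapma7bEVm000145_97093 among those that fell. For Dapma7bEVm004925_95830 the sulfoxide pools ranged from 1656 to 2494 CPM and the DMSO pools from 1407 to 2032 CPM, and the log2 fold changes at D1, D2 and D3 were 0.37, 0.21 and 0.36 with edgeR adjusted p-values of 0.0603, 0.376 and 0.0819. For Dapma7bEVm015369_96857 the ranges were 2971 to 4729 CPM in the sulfoxide pools and 2485 to 3697 CPM in the DMSO pools, and the log2 fold changes were 0.37, 0.33 and 0.44. For Dapma7bEVm009911_96464 the log2 fold changes were -0.68, -0.42 and -0.61, with edgeR adjusted p-values of 0.0603, 0.326 and 0.0956. Each of these 4 calls was lost when any of 6 to 10 single libraries was left out, whereas 14 of the 23 were kept with each library left out in turn.

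Other probes were called at 1 concentration and not in the pool of 9. Dapma7bEVm003235_97165 had 229.6, 188.2 and 167.4 CPM at 66.67 µM, against 227 to 359.2 CPM in the DMSO pools. Its log2 value against DMSO there was -0.55 (adjusted p = 0.0089, edgeR), and it was -0.04 at D2 and -0.08 at D3. Dapma7bEVm010257_96066 had 30.42, 76.59 and 52.99 CPM at 21.1 µM, against 132.2 to 281.9 CPM in the DMSO pools. Its log2 value against DMSO there was -1.67 (adjusted p = 0.0437, edgeR), beside 0.22 at D1 and -0.03 at D3. Dapma7bEVm000388_97748 differed from DMSO by -0.64 on the log2 scale at 21.1 µM and Dapma7bEVm000415_97179 by 0.55 at 6.677 µM (adjusted p = 0.0437 for both, edgeR).

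The test of the 3 concentrations against each other called 2 of 1380 probes (0.145%) and 182 at an unadjusted p under 0.05. Dapma7bEVm003644_96155 had 27.77, 14.94 and 16.01 CPM at 66.67 µM, 6.76, 7.816 and 1.432 CPM at 21.1 µM and 49.17, 40.23 and 57.66 CPM at 6.677 µM, against 17.82 to 45.97 CPM in the DMSO pools (adjusted p = 0.0129, edgeR). Among these 3 concentrations it was thus lowest at the middle one and highest at the lowest one. Its pools ranged from 4.497 to 323.4 CPM at the 5 lower concentrations and from 0 to 179.3 CPM with hydrochlorothiazide at D1 to D3. Dapma7bEVm006748_97749 had 98.13, 73.18 and 74.24 CPM at 66.67 µM, 3.38, 23.45 and 17.19 CPM at 21.1 µM and 19.32, 27.66 and 32.29 CPM at 6.677 µM, against 34.88 to 78.31 CPM in the DMSO pools (adjusted p = 0.017, edgeR). Pools of Dapma7bEVm006748_97749 ranged from 10.49 to 87.3 CPM at the 5 lower concentrations and from 5.25 to 101.3 CPM with hydrochlorothiazide at D1 to D3. Neither probe was called in the pooled contrast. None of the 23 pooled calls was among these 2. DESeq2 called 29 probes in this test, and edgeR called 13 without letter B and 0 without letter A or C.

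For most of the 1380 probes the pools limited the change to a small size. The 95% interval of the pooled fold change lay wholly within 1.5-fold either way for 1048 probes (75.9%) and within 2-fold for 1293 probes (93.7%). For 1361 probes it lay within 3-fold. The bound farther from no change was 1.31-fold for the median probe and 1.8-fold for the probe at the 90th percentile. For 87 probes a 2-fold change in some direction was not excluded, and the bound farthest from no change, that of Dapma7bEVm008074_97126, was 10.1-fold. At the other end, 6 probes had intervals wholly beyond 1.5-fold. These were Dapma7bEVm028330_96094, Dapma7bEVm010330_97413, Dapma7bEVm005544_96655, Dapma7bEVm015061_96772, Dapma7bEVm011091_96085 and Dapma7bEVm000145_97093, all of them lower in the sulfoxide pools. Only the interval of Dapma7bEVm028330_96094 lay wholly beyond 2-fold.

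The limit depended on abundance and on how many pools were joined. Within 2-fold lay 81.7% of the intervals in the least abundant of the 4 groups of probes and 97.1% in the most abundant, and within 1.5-fold 32.8% and 93.6%. For a single concentration, 817 probes (59.2%) at 66.67 µM, 839 (60.8%) at 21.1 µM and 821 (59.5%) at 6.677 µM had intervals within 1.5-fold. Within 2-fold the single concentrations had 1173 (85%), 1176 (85.2%) and 1201 (87%). When the intervals were widened so that all 1380 held together at 95%, 308 pooled intervals lay within 1.5-fold and 875 (63.4%) within 2-fold.

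**Figure D4:**
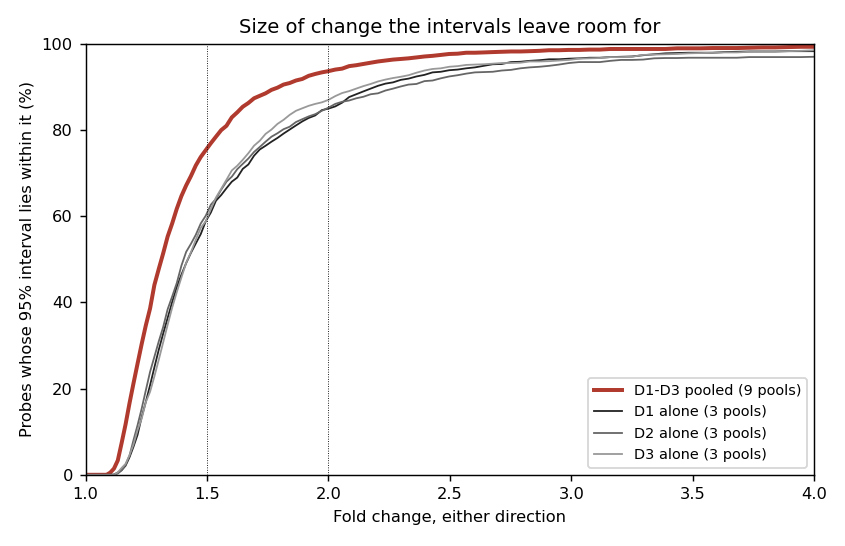
Share of the 1380 probes (y axis, percent) whose 95% interval lies wholly within the fold change on the x axis, for the 3 concentrations together and for each alone. The curve of the pooled concentrations lies above the others, at 75.9% for 1.5-fold and 93.7% for 2-fold, against 59.2% to 60.8% and 85% to 87% for single concentrations.

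The DMSO pools of either label were also set against each other. Between the 3 XtraC and 3 CON pools edgeR called 0 of 1380 probes (0%), with a smallest adjusted p of 0.0617, but 272 probes had an unadjusted p under 0.05, beside 236 in the pooled sulfoxide contrast. DESeq2 called 31, and edgeR 16 without letter A. In this contrast 713 intervals (51.7%) lay within 1.5-fold, 1126 (81.6%) within 2-fold, and 9 wholly beyond 2-fold. The sulfoxide contrast gave 18 calls when only the CON pools served as solvent pools and 15 when only the XtraC pools did.

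Values of probes that share a gene identifier can be set side by side. The identifiers of the named probes had 22 other probes on the panel, of which 9 had enough counts to be tested. Every probe called in the pooled contrast is itself a named probe, so none of these 9 could be a called one. Dapma7bEVm001511_96121 and Dapma7bEVm001511_97089, both called, share an identifier and are not among them. Dapma7bEVm010330_97762 had 1237 to 1741 CPM in the sulfoxide pools and 1366 to 1618 CPM in the DMSO pools. Its log2 fold change was -0.03 (95% interval -0.15 to 0.10), beside -1.27 for Dapma7bEVm010330_97413. Dapma7bEVm015061_96164 had 0.12 (95% interval -0.01 to 0.25), beside -1.14 for Dapma7bEVm015061_96772. For 1 identifier another probe lay nearer to its called partner, Dapma7bEVm004430_97171 with 0.24 (adjusted p = 0.0689, edgeR) beside 0.36 for Dapma7bEVm004430_96597. Further probes had the opposite sign to their called partner. Dapma7bEVm004925_97396 had -0.18 (95% interval -0.36 to -0.01) beside 0.31. Dapma7bEVm001645_97306 had -0.15 (95% interval -0.30 to -0.0005) beside 0.40, and Dapma7bEVm009911_97045 had 0.22 (95% interval -0.01 to 0.44) beside -0.57. Dapma7bEVm001645_97828, with 0.10, and Dapma7bEVm009911_97923, with -0.06, had the sign of their partners. The difference between probes of an identifier was not tested, and where on a transcript each probe lies is not given in the files.

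The 15 pools at the 5 lower concentrations, 2.113 to 0.021 µM, give the same probes further down the dilution series. The 3 high levels against the 5 lower ones, a contrast that uses no DMSO pool, gave 8 calls of 1429 probes (0.56%), 6 higher and 2 lower, and 179 at an unadjusted p under 0.05. None of the 23 probes was among the 8. All 23 had the direction of their call, 10 of 10 higher and 13 of 13 lower, with median log2 differences of 0.15 and -0.54, and 5 and 9 of them had an unadjusted p under 0.05. For the lower levels against DMSO the median log2 fold changes of the same probes were 0.23 and -0.21. Since the 23 were chosen on the high pools, which also enter this contrast, the common direction, the medians and the counts of unadjusted p-values are a description and carry no test.

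For Dapma7bEVm028330_96094, pools A, B and C had 1107, 794.4 and 360.7 CPM at 0.021 µM, 606.3, 823.2 and 263.7 CPM at 0.067 µM and 280.3, 298.5 and 266.3 CPM at 0.212 µM. They had 527.1, 225.9 and 216 CPM at 0.669 µM and 276, 225.1 and 1159 CPM at 2.113 µM. The pools at 0.021 µM thus lay within or close to the DMSO range, and most of those from 0.212 µM upward lay below it. The mean was 231 ± 87 CPM in the 9 high pools, 495 ± 328 CPM in the 15 lower ones and 665 ± 303 CPM in DMSO (SD). Its log2 difference, high minus low, was -1.08 ± 0.28 (SE; adjusted p = 0.0765, edgeR). For Dapma7bEVm010425_96130 the mean was 36010 CPM at the high levels, 30300 CPM at the lower ones (range 25190 to 37640 CPM) and 25660 CPM in DMSO, with a log2 difference of 0.24 ± 0.06 (SE; adjusted p = 0.0936, edgeR). For Dapma7bEVm004925_95830 the pools at high levels had 2235 ± 242 CPM, those at lower levels 2209 ± 202 CPM and the DMSO pools 1781 ± 218 CPM (SD). Its log2 difference, high minus low, was 0.02 ± 0.05 (SE).

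Pool C at 2.113 µM stood apart from the other lower pools. It had 1159 CPM of Dapma7bEVm028330_96094, 673.4 CPM of Dapma7bEVm010330_97413, 458 CPM of Dapma7bEVm005544_96655 and 387.4 CPM of Dapma7bEVm015061_96772, for the last 3 above every DMSO pool. Of the 13 probes called lower, 4 were above all DMSO pools in it and 2 below. Without this pool, a choice made after its values were seen, the contrast of high against low levels gave 5 calls, 4 of them among the 8.

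The 8 probes called between high and lower concentrations were other transcripts. Dapma7bEVm008551_97344 averaged 844 ± 543 CPM at the 3 high levels and 305 ± 241 CPM at the 5 lower ones, a log2 difference of 1.66 ± 0.34 (SE; adjusted p = 0.0263, edgeR). Its DMSO pools had 188.5, 228.7 and 203.5 CPM in XtraC and 550.1, 1013 and 614.9 CPM in CON, so the 2 kinds of solvent pool did not overlap. Dapma7bEVm006987_97622, with a log2 difference of 1.35, and both probes of another identifier, Dapma7bEVm000651_96920 with 1.32 and Dapma7bEVm000651_96337 with 1.28, were likewise lower in each XtraC pool than in any CON pool. The log2 differences of XtraC from CON were -1.78, -1.50, -1.12 and -1.38 for these 4 probes. Their highest sulfoxide values were at 21.1 µM, up to 1920 CPM for Dapma7bEVm008551_97344. The contrast of high against lower levels gives the DMSO pools no weight, and they enter only the fit around it. How far they shaped that fit was not tested.

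Dapma7bEVm000278_97118 was higher at the high levels by 0.42 on the log2 scale (adjusted p = 0.0263, edgeR). Dapma7bEVm007443_96077 and Dapma7bEVm005904_97788 were lower, with log2 differences of -0.40 (adjusted p = 0.032) and -0.29 (adjusted p = 0.0401), by edgeR. Dapma7bEVm005904_97788 had 372 ± 35 CPM at the high levels, 457 ± 75 CPM at the lower ones and 447 ± 61 CPM in DMSO, and its pooled difference from DMSO had an adjusted p of 0.0625 by edgeR. Across the 8 levels of the series, the linear trend called 1 of 1423 probes (0.0703%), and 185 had an unadjusted p under 0.05. That probe, Dapma7bEVm023892_97474, had 14 counts in the 9 high pools and 16 in the DMSO pools and was not tested in the pooled contrast. Without pool C at 2.113 µM the trend called 14 probes, 2 higher and 12 lower.

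Hydrochlorothiazide, a thiazide diuretic drug, was tested in the same exposure, at the same level codes, with the same DMSO pools. Its 9 pools at D1 to D3 against DMSO gave 4 calls of 1407 probes (0.284%), 2 higher and 2 lower, and 180 at an unadjusted p under 0.05. That contrast shares its DMSO pools with the sulfoxide contrast, so the values of called probes are set side by side without a test. Dapma7bEVm028330_96094 had a mean of 231 ± 87 CPM in sulfoxide pools, 297 ± 158 CPM in hydrochlorothiazide pools and 665 ± 303 CPM in DMSO pools. Its log2 fold change from DMSO was -1.17 for hydrochlorothiazide (adjusted p = 0.0111, edgeR). Dapma7bEVm001645_96689 was also called for hydrochlorothiazide, at 0.38 (adjusted p = 0.0111), as was Dapma7bEVm004925_95830, at 0.37 (adjusted p = 0.0442), both by edgeR.

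The direct contrast of sulfoxide and hydrochlorothiazide pools, which uses no DMSO pool, called 0 of 1407 probes (0%) by edgeR and 0 by DESeq2, with 99 at an unadjusted p under 0.05 and a smallest adjusted p of 0.484. Its intervals lay within 1.5-fold for 1108 probes (78.7%) and within 2-fold for 1314 (93.4%). For Dapma7bEVm028330_96094 the log2 difference was -0.33, with a 95% interval of -0.73 to 0.07. The largest differences among the named lower probes were those of Dapma7bEVm010330_97413, -0.70 (95% interval -1.40 to -0.01), and Dapma7bEVm005544_96655, -0.68 (95% interval -1.01 to -0.35). For Dapma7bEVm010425_96130 it was 0.26 (95% interval 0.09 to 0.44). Of the probes called against DMSO, 9 of 10 higher and 11 of 13 lower ones lay in the direction of their call, with median log2 differences of 0.08 and -0.31, which carry no test since the probes were chosen on the same sulfoxide pools.

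**Figure D5:**
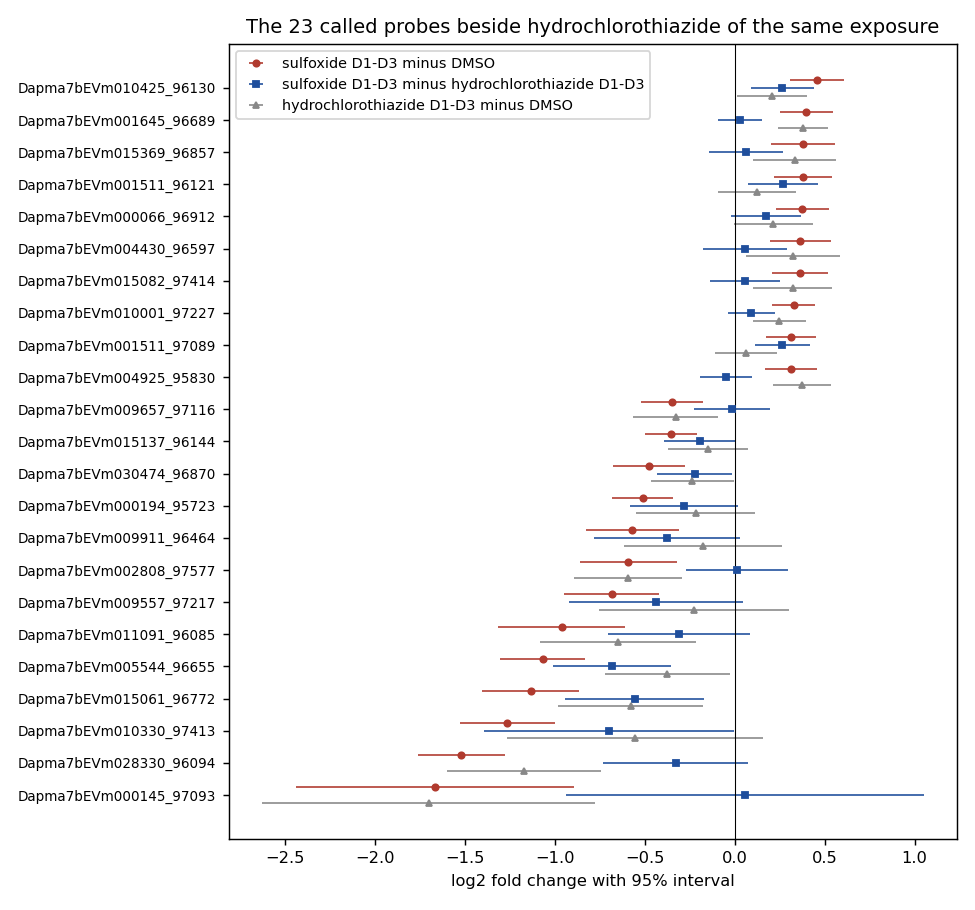
Differences of the 23 called probes (y axis), on a log2 scale (x axis), with both chemicals at their 3 highest levels. They are sulfoxide minus the shared DMSO pools, hydrochlorothiazide minus the same DMSO pools, and sulfoxide minus hydrochlorothiazide. The median of the 13 lower probes is -0.68 for sulfoxide minus DMSO, -0.38 for hydrochlorothiazide minus DMSO and -0.31 for sulfoxide minus hydrochlorothiazide.

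The same contrast can be read pool by pool. In the 9 sulfoxide pools at high levels, 8 to 13 of the 13 lower probes lay below all 6 DMSO pools, with a median of 12, a count that the choice of the probes fixes. In the 15 pools at lower levels it was 0 to 12, with a median of 4. In the 9 hydrochlorothiazide pools at D1 to D3 it was 0 to 13 and in its 15 pools at D4 to D8 also 0 to 13, with a median of 5 in each. Among all probes tested, 13% to 21.8% lay below all DMSO pools in a sulfoxide pool of D1 to D3 and 11.1% to 22% in one of D4 to D8. In the hydrochlorothiazide pools it was 13.6% to 23.7% at D1 to D3 and 13% to 29.9% at D4 to D8.

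In pool C of hydrochlorothiazide at D5, on the other hand, Dapma7bEVm028330_96094 reached 2511 CPM, Dapma7bEVm010330_97413 1282 CPM, Dapma7bEVm005544_96655 741.5 CPM and Dapma7bEVm015061_96772 663.7 CPM. All 4 values were above every DMSO pool. That pool held the highest value of the 54 libraries for 5 of the 13 probes. Their levels thus ranged widely between pools of this exposure, in wells of both chemicals.

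Other chemicals of the study, in exposures with DMSO pools of their own, gave lists of responding probes to set beside the sulfoxide. At its top concentration 2-tert-butyl-4-methoxyphenol called 821 of 1430 probes (57.4%), fipronil amide 266 of 1356 (19.6%), cis-nonachlordane 75 of 1388 (5.4%) and 3,4-dichlorophenyl isocyanate 14 of 1393 (1.01%). The isocyanate had no pool of letter C at that level. The median SE of its log2 fold changes was 0.332, beside 0.193, 0.151 and 0.161 for the other chemicals in that order. Of the 415 probes that 2-tert-butyl-4-methoxyphenol raised and that could be tested, 3 (0.723%) were higher and 0 lower with the sulfoxide, beside 0.725% and 0.942% of all probes, so the share called higher was that of the background. Their median log2 fold change was 0.03, beside -0.015 over all probes. Of the 375 that it lowered, 5 (1.33%) were higher and 12 (3.2%) lower, with a median of -0.09. Among the 146 raised by fipronil amide 5 (3.42%) were higher and 1 (0.685%) lower, with a median of 0.05, and among the 116 it lowered 2 (1.72%) were higher and 3 (2.59%) lower, with a median of -0.08.

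On the shorter lists the shares rest on 0 to 3 calls. For cis-nonachlordane, 1 of 30 raised probes (3.33%) was called higher, and of 43 lowered probes 1 (2.33%) was higher and 2 (4.65%) lower, with medians of 0.04 and -0.02. For 3,4-dichlorophenyl isocyanate, 0 of 8 raised and 0 of 4 lowered probes were called, and lists this short say nothing beside 0.725% and 0.942% of all probes. Of the 135 probes raised by at least 2 of these chemicals 3 (2.22%) were higher and 0 lower, with a median of 0.05, and of the 106 lowered by at least 2, 2 (1.89%) were higher and 3 (2.83%) lower, with a median of -0.07. The medians of the raised lists changed sign with the solvent label. Against the CON pools alone those of 2-tert-butyl-4-methoxyphenol and fipronil amide were 0.12 and 0.15, and against the XtraC pools alone -0.03 and -0.04. Those of the lowered lists moved too, with -0.116 against CON and -0.0338 against XtraC for 2-tert-butyl-4-methoxyphenol, -0.113 and -0.00998 for fipronil amide, and -0.117 and -0.00508 for at least 2 chemicals. Over all probes tested the median was 0.00937 against CON and -0.0199 against XtraC.

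Of the 13 probes called lower with the sulfoxide, 12 (92.3%) were on the list lowered by 2-tert-butyl-4-methoxyphenol, and they were 3.2% of that list, which holds 27.2% of all probes tested. That list also held 5 of the 10 probes called higher. Dapma7bEVm010425_96130, higher with the sulfoxide, had a log2 fold change of -5.45 with 2-tert-butyl-4-methoxyphenol, and Dapma7bEVm000066_96912 had -4.75. The probes lowered by that chemical thus included both those that rose and those that fell here.

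The 7 probes that earlier results of these data name as responders to other chemicals were not called in the pooled contrast. Dapma7bEVm002921_97205 had 33.48 to 209 CPM in the sulfoxide pools and 44.89 to 108 CPM in the DMSO pools, a log2 fold change fitted at 0.10 ± 0.26 (SE). Dapma7bEVm011534_97824 had 0.22 ± 0.25 (SE), Dapma7bEVm005157_96399 had -0.13, Dapma7bEVm010966_96832 had 0.09 and Dapma7bEVm010649_96442 had -0.26. Dapma7bEVm001285_98069, with 0 to 14.05 CPM in the sulfoxide pools and 2.97 to 15.39 CPM in the DMSO pools, had too few counts to be tested. Dapma7bEVm001964_97694 fell at 66.67 µM, where its pools had 798, 1322 and 1658 CPM, against 1901 to 2358 CPM in the DMSO pools, a log2 fold change fitted at -0.76 (adjusted p = 0.0226, edgeR). At 21.1 and 6.677 µM its pools had 1565 to 2520 CPM and overlapped the DMSO range, and its pooled log2 fold change was -0.28 (adjusted p = 0.211, edgeR).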

How the data were processed

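TempO-Seq counts were analysed from whole Daphnia magna, pooled within plates. The authors deposited raw read counts per probe, and tables of log2 values that equal log2(count + 1) within 5e-09. The sources used here name neither aligner nor build. The counts, whole reads per probe with no normalization, were tested as the authors deposited them. Concentrations come from the header of the deposited table of the sulfoxide.

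Tests used edgeR 4.0.16 in R 4.3.3 (quasi-likelihood F test, TMM scaling, filterByExpr by group, Benjamini-Hochberg threshold 0.05) on 15 libraries, with terms for group and replicate letter. The pooled contrast was the mean of the 3 levels minus DMSO. Intervals at 95% used the standard error, |log2 fold change| over the square root of F, and the t distribution. CPM levels used TMM factors over 54 libraries, and within-letter log2 values a prior count of 2. DESeq2 1.42.0 and limma 3.58.1 (on the log2 values, with no scaling for library totals) were alternatives, and the tests were tried on simulated data. Figures used Python 3.11.15 with matplotlib 3.10.9.

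Letters were taken as the plates, which the labels do not say. Departures of same-letter libraries from their group means had a mean correlation of 0.107 (12 of 27 pairs over 0.1), against -0.053 for other letters (9 of 54), so the data alone do not establish pairing. No library held the same counts as another. Named probes were up to 10 called per direction by smallest p in the pooled contrast, up to 5 per direction in the others on the sulfoxide, other probes of their identifiers and 7 earlier responders. The members, lists and alternatives were chosen with earlier results of these data known. Groups planned by product name could not be formed, since 0 of 1988 identifiers matched the reference table. Counting precision is set by the totals per library, 306511 to 862414 in the sulfoxide pools.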

Additional observations from a re-analysis of the deposited data

Results flagged for a closer look

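Among 51 probes examined in the 6 DMSO pools, 3 had a pool far from the others, and chance gives about 5%. Dapma7bEVm000651_96920 had 949 CPM in CON pool B, and the next pool had 527.4 CPM. Dapma7bEVm003644_96155 had 45.97 CPM in XtraC pool A, and the next had 22.73 CPM. Dapma7bEVm001645_97306 had 1934 CPM in CON pool A, and the next had 1595 CPM.

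For 2 probes the 3 high concentrations differed from each other by the direct test of edgeR. The adjusted p was 0.01286 for Dapma7bEVm003644_96155 and 0.01703 for Dapma7bEVm006748_97749, and both were lowest at 21.1 µM.

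For 7 named probes the high concentrations differed from the lower ones of the same chemical in edgeR's test of that difference. The log2 fold changes, high over low, were 1.659 for Dapma7bEVm008551_97344, 0.4188 for Dapma7bEVm000278_97118, 1.316 for Dapma7bEVm000651_96920, 1.346 for Dapma7bEVm006987_97622 and 1.283 for Dapma7bEVm000651_96337. They were -0.4007 for Dapma7bEVm007443_96077 and -0.2862 for Dapma7bEVm005904_97788.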

How the results depend on the processing

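For the 23 calls of the pooled contrast (edgeR), 28 alternatives were run. The 23 probes kept their direction in every alternative that gave them an adjusted p. Dapma7bEVm028330_96094 kept its call, with an adjusted p of at most 0.0196 by edgeR. Of 1161 pairs of a named probe and an alternative, 979 were counted as unchanged, 181 lost the call, 1 gained it and 0 reversed. A reversal was counted only for the 23 called probes. A change of sign in an uncalled probe was counted as unchanged. The cause of the changes was not tested.

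Without the replicate block, calls numbered 11 for the 3 levels together, 4, 1 and 0 for D1, D2 and D3, 0 for high against lower levels, 3 for the trend and 0 for hydrochlorothiazide against DMSO. DESeq2 gave 38 for the 3 levels together, 43, 27 and 26 for D1, D2 and D3, 29 among levels, 31 between XtraC and CON, 30 for high against lower levels, 8 for the trend and 15 for hydrochlorothiazide. Limma, on the unscaled log2 values, gave 5 for the 3 levels together and 2, 16 and 2 for D1, D2 and D3. CON pools alone gave 2 at D2 and 3 at D3, and XtraC pools alone 15 for the 3 levels and 23 at D2. With all 8 levels in the fit, D1 had 2 calls and D2 had 1. Without a filter on low counts, D3 had 7, XtraC against CON 29, the trend 2 and hydrochlorothiazide 2. Without libraries under 50% of the median total, D2 had 2. Without pool C at 2.113 µM, an alternative chosen after seeing the data, high against lower levels had 5 and the trend 14. Intervals widened for the number of probes lay within 1.5-fold for 308. Depth limits rare probes: 81.7% of intervals lay within 2-fold in the least abundant of 4 groups of probes.

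With each letter left out, counts ranged from 5 to 14 for the 3 levels together, 2 to 9, 3 to 5 and 2 to 4 for D1, D2 and D3, 0 to 13 among levels, 0 to 16 for XtraC against CON, 0 to 5 for high against lower levels, 0 to 1 for the trend and 0 to 1 for hydrochlorothiazide. With each library left out they ranged from 16 to 52, 4 to 34, 2 to 12 and 4 to 25 for the pooled contrast, D1, D2 and D3.

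Medians of the raised lists, on the log2 scale, were 0.124 against CON alone and -0.0337 against XtraC alone for 2-tert-butyl-4-methoxyphenol, 0.153 and -0.0393 for fipronil amide, 0.147 and -0.0374 for cis-nonachlordane, and 0.153 and -0.0441 for at least 2 chemicals.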
